A study of Mus musculus with 12 samples.

Results

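The adult neurogenesis genes examined here were 9 genes used to mark successive steps from a neural stem cell to a new neuron, namely Nr2e1, Sox2, Nes, Mki67, Eomes, Neurod1, Dcx, Sox11 and Prox1. They were chosen with earlier results of these data known, and were looked up by gene symbol. All 9 were found among the 55385 genes of the deposited expression table. Of these, 8 averaged 0.1 FPKM or more (fragments per kilobase of transcript, scaled to the mapped fragments of the library) over the 12 libraries and entered the test. The study asked how chronic unpredictable mild stress (CUMS), a model of depression-like behavior, and krill oil, a source of n-3 fatty acids, alter RNA levels in the mouse brain. Each library was made from the brain of 1 male wild-type C57/BL6J mouse, bought at 8 weeks of age and perfused with saline. The C_W mice were unstressed and given water, the C_O mice were unstressed and dosed with krill oil daily (200 mg/kg), the MS_W mice received CUMS for 4 weeks with water, and the MS_O mice received both CUMS and krill oil. The study's text differs on when krill oil began, so its duration is not given. There were 3 mice in each group, named here by group and mouse number, and the estimated counts summed to between 50912906 and 75678721 per library. Every C_W library (at least 69768244) was deeper than every MS_W library (at most 61608502).

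In the adult rodent brain new neurons are made mainly in the dentate gyrus of the hippocampus and in the subventricular zone, whose neuroblasts migrate to the olfactory bulb. Radial glia-like stem cells express Sox2, Nr2e1 and Nes, pass through dividing intermediate progenitors, and become neuroblasts that express Dcx before they mature. Several of these genes are also used outside neurogenesis, since Sox2 is expressed by astrocytes, Neurod1 and Prox1 by mature neurons, and Eomes by projection neurons of the olfactory bulb. RNA of a whole tissue was measured, so fewer cells of a type and less RNA per cell cannot be told apart.

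The label of the tissue was checked against marker lists of brain regions, and the libraries C_O72 and MS_W95 stood apart. The Pearson r of log2(FPKM + 1) was 0.97 between them and at most 0.937 with any of the other 10 libraries, which had an r of at least 0.959 among themselves. Of 10 cerebellum markers, the summed FPKM was 274 in C_O72 and 931 in MS_W95, and 7.75 to 20.8 in the other 10 libraries. Of 8 hindbrain markers it was 78.5 and 29.4, against at most 0.0976 in the other 10, in which 6 or 7 of the 8 were listed without signal. The labels give the tissue as brain and the study's methods as whole brain, which holds both regions, so their defining markers were nearly absent from 10 of the 12 libraries. Of 8 cortex markers the summed FPKM was 36.4 in C_O72 and 49.0 in MS_W95, against 136 to 393. Of 8 olfactory bulb markers it was 234 in MS_O46 and 240 in MS_O78, 37.6 in MS_O13, 7.77 to 67.0 in C_W, 3.27 to 29.8 in C_O and 6.72 to 83.0 in MS_W. Between MS_W and C_W, 5 of 10 striatum markers (median log2FC 1.78) and 5 of 9 tested hypothalamus markers (1.19) were higher and 5 of 8 cortex markers lower (-1.45) with an unadjusted p under 0.05. Without C_O72 and MS_W95 these counts were 10 of 10 (2.69), 6 of 9 (1.81) and 6 of 8 (-0.92). The share of all tested genes with such a p was 10.5% in the 12 libraries and 15.4% in the 10. The part of these differences in tissue composition in the results below was not tested, other than by the fits that are named.

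Of the 9 genes, 6 took values in C_O72 and MS_W95 outside the range of the other 10 libraries. Dcx, Sox11, Nr2e1 and Mki67 lay below that range in both libraries, and Neurod1 and Prox1 lay above it. Results are therefore given for all 12 libraries and, for part of the comparisons, for the 10 without these, in which C_O and MS_W have 2 mice each.

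**Figure D1:**
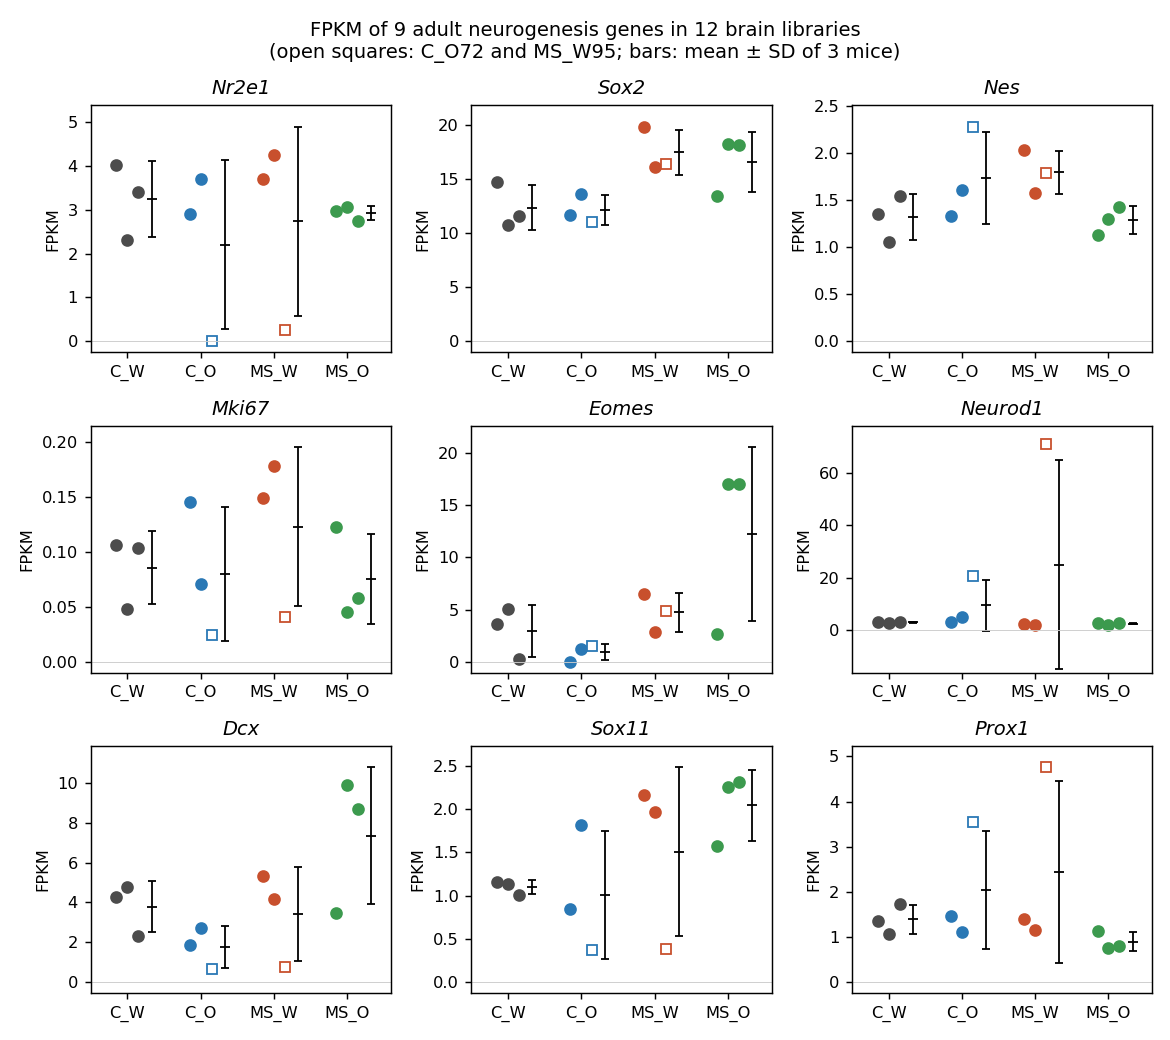
FPKM (y axis, linear, a separate scale for each gene) of the 9 genes in each of the 12 libraries by group (x axis), with the mean ± SD of 3 mice beside the points. Open squares are C_O72 and MS_W95, which hold the 2 highest values of Neurod1 (20.7 and 70.9) and Prox1 (3.54 and 4.76) and the 2 lowest of Dcx, Sox11, Nr2e1 and Mki67.

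Differences were tested by limma on log2(FPKM + 1). All 4 groups were fitted together, for the 21393 genes averaging 0.1 FPKM or more, and a log2 fold change (log2FC) is a difference of group means on that scale with its standard error (SE). An exact permutation test of 3 mice against 3 cannot give a p below 0.1 and was not used. Comparing MS_W with C_W, 1 of the 8 tested genes (Sox2) had an unadjusted p under 0.05, while 10.5% of all tested genes did. Comparing MS_O with C_O, 3 of 8 did (Eomes, Dcx and Sox2, each higher in MS_O), beside 8.88% of all tested genes. Of these, Eomes and Dcx also had a ratio of mean FPKM of more than 1 on the log2 scale, as did 3.57% of the tested genes in either direction. The study set these limits with Ballgown's p, and in an ordinary linear model with Ballgown's library size term neither gene had an unadjusted p under 0.05 (log2FC 0.61 for Eomes, adjusted p = 0.734, and 1.12 for Dcx, adjusted p = 0.732). Comparing C_O with C_W, and MS_O with MS_W, 0 of 8 had an unadjusted p under 0.05 in limma, beside 3.55% and 6.09% of all tested genes. The interaction, which is the difference of MS_O and C_O minus the difference of MS_W and C_W, gave 2 of 8 (Dcx and Nes), beside 7.23% of all tested genes.

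No gene of the 9 passed an adjusted p of 0.05 in any of the 5 comparisons, by limma, edgeR or DESeq2. Of all tested genes, 0.00467% passed it in limma in each of MS_W against C_W, MS_O against C_O and MS_O against MS_W, and 0% in the other comparisons. DESeq2 passed more of its 22169 genes: 408 for MS_W against C_W, 168 for MS_O against C_O and 58 for C_O against C_W. It passed 80 for MS_O against MS_W and 159 for the interaction. The smallest limma adjusted p was 0.357 for MS_W against C_W, 0.479 for MS_O against C_O, 0.908 for C_O against C_W, 0.829 for MS_O against MS_W and 0.665 for the interaction. Unadjusted p under 0.05 are therefore given only as counts and calls, and p-values are printed in adjusted form. The comparisons share samples (C_W in MS_W against C_W and C_O against C_W, C_O in MS_O against C_O and C_O against C_W), so they are not independent of each other.

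**Figure D2:**
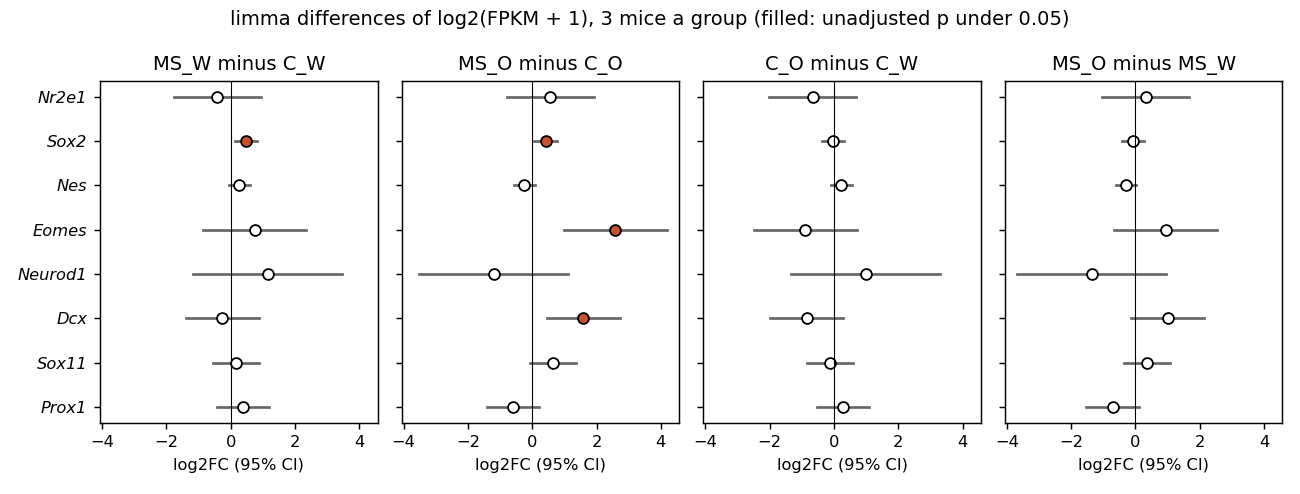
Difference of log2(FPKM + 1) (x axis, log2FC with 95% confidence interval from limma, 3 mice a group) of the 8 tested genes (y axis) in 4 comparisons. Filled points have an unadjusted p under 0.05, which are Sox2 (0.47) in MS_W minus C_W, and Eomes (2.58), Dcx (1.58) and Sox2 (0.42) in MS_O minus C_O.

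Among the stem cell genes, Sox2 encodes a transcription factor that keeps neural stem cells undifferentiated. It is a gene of 1 exon on chromosome 3 (mm10, 34650405 to 34652461, plus strand), lies within the long noncoding gene Sox2ot, and was the most abundant of the 9. Its FPKM was 14.8, 10.8 and 11.6 in C_W1, C_W64 and C_W70, and 19.9, 16.2 and 16.5 in MS_W31, MS_W75 and MS_W95. All MS_W mice were above all C_W mice, with means of 17.5 ± 2.07 and 12.4 ± 2.11 (SD, n = 3). The log2FC was 0.47 (SE 0.16, 95% confidence interval 0.13 to 0.82, limma adjusted p = 0.357). Genes whose groups did not overlap, in this direction, were 16.3% of all tested genes in this comparison. The unadjusted p rose above 0.05 without C_W64 (log2FC 0.39) or without MS_W31 (0.38), so the call rested on these mice. It was held without C_O72 and MS_W95 (log2FC 0.51, adjusted p = 0.225 in limma). Over those 10 libraries the Pearson r of Sox2 was -0.91 with the cortex marker score and 0.90 with the oligodendrocyte precursor score, and over all 12 it was -0.32 and 0.30. The part of the striatum, hypothalamus and cortex differences between MS_W and C_W in that of Sox2 was not tested.

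The krill oil groups gave a similar difference for Sox2 but with overlap. The FPKM of Sox2 was 11.7, 13.7 and 11.0 in C_O15, C_O30 and C_O72, and 13.4, 18.3 and 18.2 in MS_O13, MS_O46 and MS_O78. The lowest MS_O mouse lay just under the highest C_O mouse. The log2FC was 0.42 (SE 0.16, 95% confidence interval 0.07 to 0.76, limma adjusted p = 0.504). The unadjusted p rose above 0.05 without C_O72 (log2FC 0.36), C_O15 (0.40), MS_O46 (0.35) or MS_O78 (0.35), and in the 10 libraries (log2FC 0.36, adjusted p = 0.402). The effect of CUMS on Sox2 with krill oil minus that without was -0.06 (95% confidence interval -0.55 to 0.43), which leaves a difference of either sign possible.

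Nes encodes nestin, an intermediate filament of stem and progenitor cells that endothelial cells can also express, and lies on chromosome 3 (87971078 to 87980451, plus strand). Its FPKM was 1.35, 1.06 and 1.54 in C_W, and 2.03, 1.57 and 1.79 in MS_W31, MS_W75 and MS_W95. The 3 MS_W mice were above the 3 C_W mice by a narrow margin, and the log2FC was 0.27 (SE 0.14, limma adjusted p = 0.529). Genes in this order without overlap were 16.3% of all tested genes. In the krill oil groups the order was the other way, with 1.33, 1.61 and 2.28 in C_O15, C_O30 and C_O72 and, in MS_O, from 1.13 in MS_O13 to 1.43 in MS_O78 with MS_O46 between them, where the groups overlapped (log2FC -0.25, SE 0.14, adjusted p = 0.637). The interaction of CUMS and krill oil for Nes was -0.52 (SE 0.20, limma adjusted p = 0.665). It was -0.38 (SE 0.18) in the 10 libraries, where the unadjusted p was above 0.05. Every MS_O mouse was below every MS_W mouse in Nes (log2FC -0.29, SE 0.14, adjusted p = 0.829), and 7.66% of all tested genes had this order without overlap.

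Nr2e1 encodes the orphan nuclear receptor TLX, needed for the self-renewal of adult neural stem cells, and lies on chromosome 10 (42561963 to 42583632, minus strand). Its FPKM was 4.02, 2.32 and 3.40 in C_W, 2.90 and 3.69 in C_O15 and C_O30, 3.70 and 4.24 in MS_W31 and MS_W75, and 2.97, 3.06 and 2.74 in MS_O. In C_O72 it was 0.0177, from 4 estimated counts, and in MS_W95 it was 0.265. These libraries alone fell below 2.32, and they were the ones with cerebellum and hindbrain markers. No comparison of Nr2e1 had an unadjusted p under 0.05 in limma, and the adjusted p was 0.721 for the interaction and higher for the others. Its SE was 0.61 for a pair of groups in the 12 libraries and 0.17 in the 10, where the log2FC of MS_W against C_W was 0.25 (adjusted p = 0.545) and that of MS_O against C_O was -0.13 (adjusted p = 0.770).

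Mki67 encodes Ki-67, a nuclear protein of dividing cells, and lies on chromosome 7 (135689784 to 135716361, minus strand). It was the least abundant of the 9, with 15 to 116 estimated counts per library and a mean of 0.0909 FPKM, under the filter, so limma did not test it. Its FPKM was 0.106, 0.0476 and 0.103 in C_W, 0.145, 0.0704 and 0.0244 in C_O, 0.149, 0.178 and 0.0410 in MS_W31, MS_W75 and MS_W95, and 0.122, 0.0453 and 0.0582 in MS_O. All 4 groups of Mki67 values overlapped. Its level was near the lower limit of what these libraries measured, and no difference in Mki67 was detected beyond the spread between mice (edgeR on the estimated counts gave an adjusted p = 0.885 for MS_W against C_W and an adjusted p = 0.978 for MS_O against C_O).

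Eomes, also called Tbr2, encodes a T-box factor of intermediate progenitors, and Dcx encodes doublecortin, a microtubule-binding protein of migrating neuroblasts. These genes had the largest differences between MS_O and C_O among the 9. Eomes lies on chromosome 9 (118478212 to 118486132, plus strand) and Dcx on chromosome X (143855842 to 143933311, minus strand). Their promoters are shown because these members moved together across libraries. The sequences are the bases before the RefSeq start in the build GRCm38.p6, printed 5′ to 3′ on the strand of the gene (chr9:118477939-118478188 for Eomes, chrX:143933312-143933469 for Dcx), up to the first annotated base of the gene, and 1 of 2 RefSeq entries was taken for Dcx. Capitals mark TATAA on either strand, where TTATA is its reverse and may overlap it, and this motif was chosen after the sequences were seen.
Eomes: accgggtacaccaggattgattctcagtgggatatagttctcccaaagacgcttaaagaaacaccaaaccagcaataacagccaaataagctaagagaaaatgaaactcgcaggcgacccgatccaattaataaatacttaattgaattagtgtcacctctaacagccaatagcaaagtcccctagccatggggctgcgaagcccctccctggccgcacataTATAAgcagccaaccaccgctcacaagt
Dcx: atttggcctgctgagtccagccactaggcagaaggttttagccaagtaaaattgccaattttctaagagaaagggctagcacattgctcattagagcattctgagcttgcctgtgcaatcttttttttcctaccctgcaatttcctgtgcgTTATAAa
TATAA was found in 22.8% of the 32851 RefSeq promoters within the same 250 bases and in 15.3% within the same 158 bases. An E-box bound by proneural factors (CAGCTG or CAGATG, both strands) and the Sox motif ACAAAG (both strands) were not found in either window, and the shares of all promoters that hold them within the same 158 bases were 7.91%, 9.57% and 10.8%. Over 250 bases, 14.4% held CAGATG and 16.5% held ACAAAG.

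The FPKM of Eomes was 3.63, 5.09 and 0.244 in C_W1, C_W64 and C_W70, and 0.0205, 1.21 and 1.47 in C_O15, C_O30 and C_O72. It was 6.53, 2.80 and 4.88 in MS_W31, MS_W75 and MS_W95, and 2.64, 17.0 and 17.0 in MS_O13, MS_O46 and MS_O78. The value spanned 7 to 4583 estimated counts, and MS_O46 and MS_O78 were far above every other library. Every MS_O mouse was above every C_O mouse, with means of 12.2 ± 8.31 and 0.899 ± 0.772 (SD, n = 3). Genes without overlap in this direction were 8.9% of all tested genes. The log2FC was 2.58 (SE 0.72, 95% confidence interval 0.98 to 4.18, limma adjusted p = 0.479). In the 10 libraries it was 2.82, with an unadjusted p under 0.05, as for 13.6% of all tested genes.

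The FPKM of Dcx was 4.25, 4.77 and 2.34 in C_W1, C_W64 and C_W70, and 1.85, 2.74 and 0.643 in C_O15, C_O30 and C_O72. It was 5.32, 4.19 and 0.779 in MS_W31, MS_W75 and MS_W95, and 3.47, 9.89 and 8.70 in MS_O13, MS_O46 and MS_O78. The same MS_O mice as for Eomes were highest, and the lowest MS_O mouse was above the highest C_O mouse, as for 8.9% of all tested genes. The means were 7.35 ± 3.42 in MS_O and 1.74 ± 1.05 in C_O (SD, n = 3), a 4.21-fold ratio, and the log2FC was 1.58 (SE 0.51, 95% confidence interval 0.45 to 2.72, limma adjusted p = 0.479). Against MS_W, MS_O gave a log2FC of Dcx of 1.01 (SE 0.51, adjusted p = 0.829), with overlap. In the 10 libraries the log2FC of Dcx for MS_O against C_O was 1.25. Its unadjusted p was under 0.05, as for 13.6% of all tested genes.

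Without krill oil, neither gene had an unadjusted p under 0.05 for CUMS. For MS_W against C_W the log2FC of Dcx was -0.26 (95% confidence interval -1.40 to 0.87) and that of Eomes was 0.75 (-0.85 to 2.35). In the 10 libraries they were 0.30 (SE 0.39, adjusted p = 0.760) and 0.71 (SE 0.88, adjusted p = 0.747), so the direction turned for Dcx. The intervals over 12 libraries are wide enough to hold a difference of more than 1 on the log2 scale. The interaction of CUMS and krill oil was 1.85 for Dcx (SE 0.73, 95% confidence interval 0.24 to 3.46, limma adjusted p = 0.665) and 1.82 for Eomes (SE 1.02, -0.44 to 4.09). In the 10 libraries the interaction for Dcx was 0.96 (SE 0.55, adjusted p = 0.755), and its unadjusted p was above 0.05.

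Both genes followed the olfactory bulb markers closely over the 10 libraries and less so over all 12. Over the 10 libraries other than C_O72 and MS_W95, the Pearson r with the mean log2(FPKM + 1) of the 8 olfactory bulb markers was 0.985 for Dcx and 0.994 for Eomes, and Spearman's rho was 1.0 and 0.988. Over all 12 libraries the r was 0.948 for Dcx and 0.862 for Eomes. MS_W95 stood off the relation, with an Eomes of 4.88 FPKM at a marker sum of 6.72, against 3.63 FPKM at 55.5 in C_W1. Without the 2 libraries farthest from the median marker level (MS_O46 and C_O15) the r was 0.979 for Dcx and 0.991 for Eomes, and the r of Eomes with Dcx was 0.988 over 10 libraries. All points of such a correlation share tissue and library preparation. Inside C_W, C_W70, with a marker sum of 7.77 against 55.5 and 67.0 in the other C_W mice, was the lowest in Eomes and Dcx. Inside C_O, C_O72 had a marker sum of 5.96 and an Eomes of 1.47 FPKM, above the 1.21 of C_O30 at 29.8. Its Dcx (0.643) was below that of C_O15 (1.85 at 3.27). Inside MS_W, the Eomes of MS_W95 was above the 2.80 of MS_W75 at 43.5, while the order of Dcx followed the markers. MS_O13, whose marker sum of 37.6 was near the 29.8 of C_O30, had a Dcx of 3.47 against 2.74 FPKM and an Eomes of 2.64 against 1.21 FPKM.

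All 8 olfactory bulb markers were higher in MS_O than in C_O with an unadjusted p under 0.05 (median log2FC 2.35, median over all tested genes 0.03), in 12 libraries as in 10. The share of all tested genes with such a p, in either direction, was 8.88% in the 12 libraries and 13.6% in the 10. With the marker score as a covariate in the limma fit, the log2FC of MS_O against C_O was 0.04 for Dcx (SE 0.35), 0.73 for Eomes (SE 0.71) and 0.09 for Sox2 (SE 0.18), with no unadjusted p under 0.05. The share of all tested genes with p under 0.05 was then 2.46%. In the same fit Sox2 in MS_W against C_W was 0.48 (SE 0.13, adjusted p = 0.254) and kept an unadjusted p under 0.05. The mean score was 1.97 in MS_W and 2.06 in C_W, so this covariate could hardly change that difference. Scores of striatum, hypothalamus and cortex were not used as covariates. The olfactory bulb score separates MS_O from C_O, so this fit also removes what the groups share with it. The share of olfactory bulb tissue and the treatment cannot be told apart for Dcx and Eomes.

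**Figure D3:**
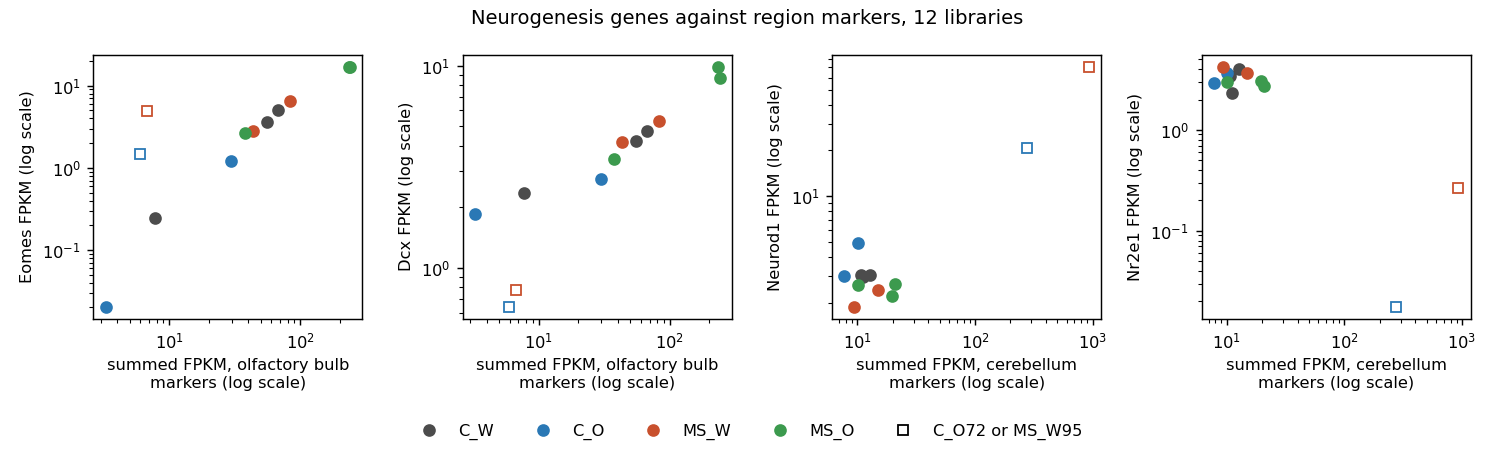
FPKM of Eomes and Dcx against the summed FPKM of 8 olfactory bulb markers, and of Neurod1 and Nr2e1 against that of 10 cerebellum markers, in 12 libraries (all axes on a log scale, 1 point a library). Eomes and Dcx are highest in MS_O46 and MS_O78, where the olfactory bulb sum is 234 and 240, and the open squares (C_O72 and MS_W95), with cerebellum sums of 274 and 931, hold the highest Neurod1 and the lowest Nr2e1.

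Neurod1 encodes a basic helix-loop-helix factor that drives neuronal differentiation and is also expressed by granule neurons of the cerebellum, and it lies on chromosome 2 (79452521 to 79456751, minus strand), within the span of Cerkl. Its FPKM was 3.03, 2.98 and 3.06 in C_W, 2.99, 4.91 and 20.7 in C_O15, C_O30 and C_O72, 2.45, 1.89 and 70.9 in MS_W31, MS_W75 and MS_W95, and 2.62, 2.21 and 2.64 in MS_O. The 2 high values were those of the libraries with cerebellum markers, and they set the means of C_O (9.53 ± 9.72, SD) and MS_W (25.1 ± 39.7). For MS_W against C_W the log2FC of Neurod1 was 1.15 (SE 1.04, limma adjusted p = 0.683) in 12 libraries and -0.35 (SE 0.17, adjusted p = 0.364) in 10, so the direction turned. The estimated counts gave 2.91 in edgeR (adjusted p = 0.505) for the 12 libraries, with an unadjusted p under 0.05.

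Comparing MS_O with C_O, every MS_O mouse was lower in Neurod1, and this order without overlap was found in 3.29% of all tested genes. The log2FC was -1.20 (SE 1.04, limma adjusted p = 0.747) in 12 libraries. In the 10 libraries, with the 2 remaining C_O mice, it was -0.48 (SE 0.17, adjusted p = 0.335) with an unadjusted p under 0.05, which 13.6% of all tested genes then had. Neurod1 thus went the other way from Eomes and Dcx in this comparison.

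Sox11 encodes a SoxC factor of immature neurons that acts upstream of Dcx, and it is a gene of 1 exon on chromosome 12 (27334264 to 27342574, minus strand). Its FPKM was 1.15, 1.14 and 1.00 in C_W, 0.849, 1.82 and 0.367 in C_O15, C_O30 and C_O72, 2.16, 1.97 and 0.383 in MS_W31, MS_W75 and MS_W95, and 1.57, 2.25 and 2.31 in MS_O. MS_W31 and MS_W75 were above all C_W mice and MS_W95 was below them. The log2FC of MS_W against C_W was 0.16 (SE 0.32, limma adjusted p = 0.854) in 12 libraries and 0.55 (SE 0.18, adjusted p = 0.221) in 10, where Sox11 was among the 15.4% of genes with an unadjusted p under 0.05. For MS_O against C_O it was 0.65 (SE 0.32, adjusted p = 0.589) and, in the 10 libraries, 0.41 (SE 0.18, adjusted p = 0.374).

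Prox1 encodes a homeobox factor of dentate granule neurons, from their formation into maturity, and lies on chromosome 1 (190118035 to 190170714, minus strand), where it overlaps the antisense gene Prox1os. Its FPKM was 1.36, 1.08 and 1.74 in C_W, 1.47, 1.12 and 3.54 in C_O15, C_O30 and C_O72, 1.39, 1.17 and 4.76 in MS_W31, MS_W75 and MS_W95, and 1.14, 0.756 and 0.805 in MS_O. Every MS_O mouse was below every MS_W mouse, as for 7.66% of all tested genes, though MS_O13 lay just under MS_W75. The log2FC was -0.71 (SE 0.37, limma adjusted p = 0.829) in 12 libraries and -0.27 (SE 0.15, adjusted p = 0.682) in 10. For MS_O against C_O it was -0.60 (SE 0.37, adjusted p = 0.659), with overlap.

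Krill oil without stress gave no difference in any of the 8 tested genes with a p under 0.05 by limma, edgeR or DESeq2. The intervals for C_O against C_W were -0.37 to 0.33 for Sox2 and -0.09 to 0.55 for Nes, and were wider for the others, with -1.98 to 0.29 for Dcx, -2.49 to 0.71 for Eomes and, the widest, -1.32 to 3.31 for Neurod1. Over all 9 genes, 26 of the 27 pairs of groups that were neighbours in the order of mean FPKM overlapped, and 5.09% of all such pairs over the tested genes did not. The exception was Neurod1 in C_W (3.02 ± 0.0413, SD, n = 3) and MS_O (2.49 ± 0.244).

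**Figure D4:**
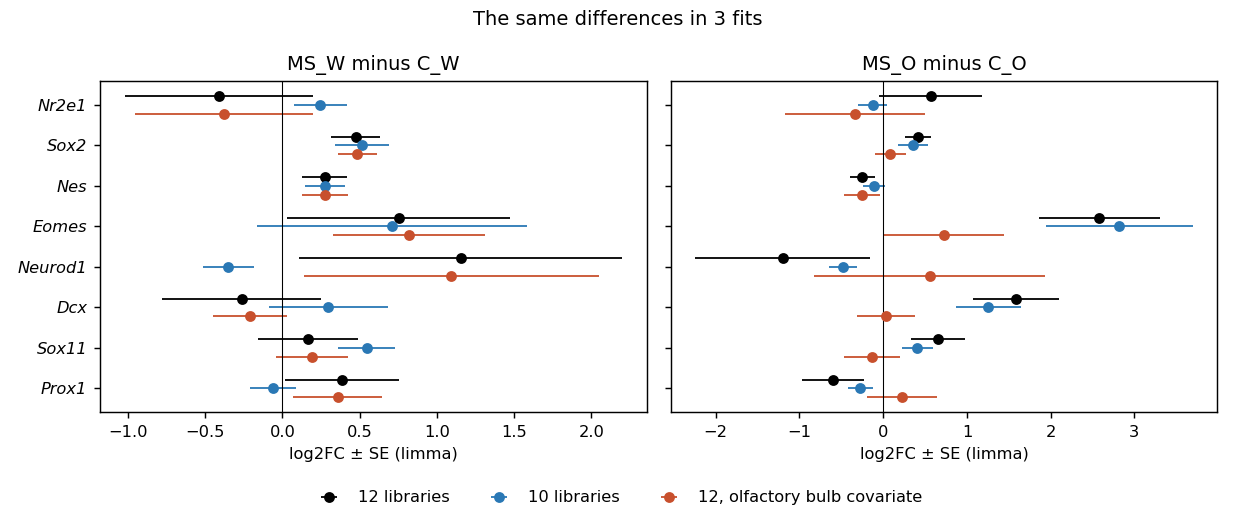
log2FC ± SE (x axis, limma) of the 8 tested genes in MS_W minus C_W and MS_O minus C_O, from all 12 libraries, from the 10 libraries without C_O72 and MS_W95, and from 12 libraries with the olfactory bulb score as a covariate. Neurod1 in MS_W minus C_W moved from 1.15 to -0.35 in the 10 libraries, and Dcx in MS_O minus C_O moved from 1.58 to 0.04 with the covariate.

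Other genes of the same pathway were taken from 6 lists that hold none of the 9 genes. Of 15 stem cell and radial glia genes, 2 had an unadjusted p under 0.05 in MS_W against C_W, both higher, which is near the 10.5% of all tested genes. Id4, an inhibitor of basic helix-loop-helix factors that keeps stem cells quiescent, had the smallest p, with 16.6, 12.3 and 18.0 FPKM in C_W and 26.3, 34.7 and 35.3 in MS_W31, MS_W75 and MS_W95, without overlap. Its log2FC was 1.00 (SE 0.16, limma adjusted p = 0.105). Genes in this order without overlap were 16.3% of all tested genes. In MS_O the FPKM of Id4 was 21.8, 21.8 and 19.0, below all MS_W mice (log2FC -0.59, adjusted p = 0.647), as for 7.66% of all tested genes. Sox1, a relative of Sox2, was the other of the 2 higher genes in MS_W against C_W (log2FC 0.59). In the 10 libraries 2 of the list were higher in that comparison, beside 15.4% of all tested genes. With the olfactory bulb score as a covariate 3 were higher, beside 11.3%.

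In MS_O against C_O, 2 of the 15 stem cell and radial glia genes had a p under 0.05, again both higher, beside 8.88% of all tested genes. There were 4 in the 10 libraries, all higher (beside 13.6% of all tested genes), and 0 with the olfactory bulb score as a covariate (beside 2.46%). Fabp7, a brain fatty acid-binding protein of radial glia, had 3.58, 14.6 and 7.23 FPKM in C_O and 16.8, 46.2 and 79.5 in MS_O (log2FC 2.28, SE 0.56, limma adjusted p = 0.479), and Sox1 had a log2FC of 0.92 (adjusted p = 0.479). The MS_O mice did not overlap with C_O in Fabp7 and were highest in MS_O46 and MS_O78, as for Dcx. Higher values in MS_O without overlap were found in 8.9% of all tested genes.

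Of 17 neuroblast and immature neuron genes, 6 were higher and 1 lower with p under 0.05 in MS_O against C_O, beside 8.88% of all tested genes. The median log2FC was 0.28, and that over all tested genes was 0.03. This list holds Dlx1 and Dlx2, which also mark interneurons made for the olfactory bulb. Igfbpl1 (log2FC 1.41, limma adjusted p = 0.479) and Sox4, which acts with Sox11 (1.41, adjusted p = 0.479), had the smallest p among the higher ones, and Elavl4, a neuronal RNA-binding protein, was the lower one (-0.51, adjusted p = 0.513). In the 10 libraries 10 were higher and 2 lower, beside 13.6% of all tested genes. With the olfactory bulb score as a covariate 0 passed in either direction, beside 2.46%. In MS_W against C_W, 1 was higher and 1 lower, beside 10.5%. The higher one was St8sia2, which makes the polysialic acid carried by migrating neuroblasts. It had 0.651, 0.557 and 0.649 FPKM in C_W and 2.10, 1.94 and 1.37 in MS_W31, MS_W75 and MS_W95 (log2FC 0.78, SE 0.17, limma adjusted p = 0.219). The groups did not overlap, as for 16.3% of all tested genes in this direction. The lower one was Stmn1, a microtubule-destabilizing protein (-0.64, adjusted p = 0.463). For MS_W against C_W in the 10 libraries, 3 were higher and 1 lower, beside 15.4% of all tested genes. With the olfactory bulb score as a covariate 4 were higher and 2 lower in this comparison, beside 11.3%.

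Of 6 intermediate progenitor genes, Tfap2c was higher in MS_O against C_O (log2FC 0.75, limma adjusted p = 0.479), and Neurog2 was lower in MS_W against C_W (-0.15, adjusted p = 0.470). Of 16 cell cycle genes, 12 were abundant enough to be tested. In MS_W against C_W 1 was higher (Tyms, which makes thymidylate for DNA synthesis, log2FC 0.19), and in MS_O against C_O 1 was higher (Hmgb2, a chromatin protein, 0.54). None was lower in these comparisons, and none of the 12 had an adjusted p under 0.05 in limma. Of all tested genes, 10.5% and 8.88% had an unadjusted p under 0.05 in these comparisons.

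Of 8 dentate granule neuron genes, 7 were tested, and 0 differed between MS_O and C_O by an unadjusted p under 0.05 in limma (median log2FC -0.03). Npnt was lower in MS_W (2.29, 2.74 and 2.09 FPKM) and in C_O (2.99, 3.24 and 1.40) than in C_W (6.42, 6.88 and 7.73), without overlap, as were 8.22% and 5.34% of all tested genes in these comparisons. Its log2FC was -1.25 (limma adjusted p = 0.167) and -1.22 (adjusted p = 0.908), and these comparisons share the C_W mice. C1ql2 was lower in MS_O than in MS_W (-0.93, adjusted p = 0.684). Its unadjusted p was under 0.05 there, as for 6.09% of all tested genes. The 10 libraries left the median log2FC of this list at -0.02 for MS_W and 0.06 for MS_O against their controls.

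Of 16 niche ligands and receptors, 3 were higher and 0 lower in both MS_W against C_W (median log2FC 0.23) and MS_O against C_O (-0.04), beside 10.5% and 8.88% of all tested genes. In the 10 libraries the counts were 2 higher and 0 lower for MS_W and 1 higher and 2 lower for MS_O, and with the olfactory bulb score 0 passed for MS_O. The shares of all tested genes were then 15.4%, 13.6% and 2.46%. With the same score 2 were higher for MS_W, beside 11.3%. Ptch1, the Hedgehog receptor (log2FC 0.91), and Fgfr1, an FGF receptor (0.76), were among those in MS_W in the 12 libraries. Cxcr4, a chemokine receptor of migrating cells (0.67), and Reln, the secreted guidance protein reelin (0.79), were among those in MS_O. For MS_O against MS_W, Igf1 (0.36) and Frzb, a Wnt antagonist (1.34), were higher and Cxcl12, the ligand of Cxcr4, was lower (-0.33). These were the only genes of the list with an unadjusted p under 0.05 there, beside 6.09% of all tested genes. In the 10 libraries 0 passed in that comparison, beside 8.54%. The adjusted p of the 7 genes named here, in limma over 12 libraries, was between 0.401 and 0.815.

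The genes with the pattern most like each member were found by Pearson r of log2(FPKM + 1) over the 12 libraries, among genes averaging 1 FPKM or more, and are given as a description. For Dcx they were Dlx2 (0.991), Dlx1 (0.984) and Sp8 (0.983), and the r was 0.981 to 0.992 in the 10 libraries. For Eomes they were Vipr2 (0.985), Shisa8 (0.981) and Th (0.978), at 0.989 to 0.993 in the 10. Dlx1, Dlx2 and Sp8 mark interneurons made for the olfactory bulb, and Th is the dopamine-synthesis enzyme of some of them. Sp8 is itself among the olfactory bulb markers, so it is part of the score used above. Dlx1 and Dlx2 are in the neuroblast and immature neuron list.

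For Neurod1 they were Iltifb (0.984), Car8 (0.983) and Cnpy1 (0.982). Car8 is a Purkinje cell gene and is itself among the cerebellum markers. In the 10 libraries the r of these genes was 0.15, 0.23 and -0.54, so this likeness rested on C_O72 and MS_W95. The likeness of Nr2e1 to Pla2g15 (0.984), Cpt1c (0.979) and Syt5 (0.975) fell to 0.76, 0.64 and 0.45 in the 10, and that of Prox1 to Eps8l2 (0.969), Fbxo3 (0.969) and Fam20a (0.969) to 0.73, 0.81 and 0.79. Sox2 was nearest to Zfp213 (0.971), Mmachc (0.944) and Sf3a1 (0.939), Sox11 to Sorcs2 (0.977), Caly (0.976) and Coro7 (0.973), Nes to Plxnb1 (0.924), Slc15a4 (0.919) and Erbb3 (0.917), and Mki67 to Adcy3 (0.902), Spin1 (0.884) and Ptpn5 (0.878). For these 4 members the r was at least 0.851 in the 10 libraries.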

How the data were processed

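RNA of tissue labelled brain from 12 mice was sequenced as 1 strand-marked poly(A) library a mouse, with 3 mice in each of 4 groups taken from the labels. Dose, weeks of CUMS, sex and age come from the study's text, which the labels do not give. Per the study's methods and, for versions, the submitters' processing notes, reads were trimmed with cutadapt 1.9, aligned to mm10 with HISAT2 2.0.4 and assembled with StringTie 1.3.4d, and the authors estimated expression with Ballgown. The authors deposited FPKM, in which genes lacking an estimate stand at 0.0001. The estimated count values deposited beside them were derived from coverage, are not single reads, and were rounded to whole numbers for edgeR and DESeq2. Whether counting used strand is not given in the sources used here, so reads of Prox1, Sox2, Neurod1, Eomes and Mki67 may be shared with overlapping genes.

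From the FPKM, differences of log2(FPKM + 1) were tested with limma 3.58.1 under R 4.3.3 (two-sided, moderated variances with a trend) for the 21393 genes averaging 0.1 FPKM or more. The pseudocount of 1 understates changes of low genes. Adjusted p follow Benjamini and Hochberg over all tested genes, and the fits were tested on simulated data. The members, gene lists and tests were chosen with earlier results of these data known. All 9 genes are named, with 3 genes of like pattern each, and up to 2 higher and 2 lower genes with the smallest p per list and comparison. A value of a list is its summed FPKM, and its score is the mean of log2(FPKM + 1). The alternatives were pseudocounts of 0.1 and 0.01, other filters and scalings, edgeR 4.0.16, DESeq2 1.42.0, region scores as covariates and leaving out libraries. Labels do not say whether mice shared a litter or preparation. Promoters are those of RefSeq (GRCm38.p6), with an entry for 9 of the 9 genes. Python 3.11.15 with pandas 2.3.3 drew the figures through matplotlib 3.10.9.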

Additional observations from a re-analysis of the deposited data

Results flagged for a closer look

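By the interaction term of the limma fit, 2 of the 8 tested genes had an unadjusted p under 0.05. This term compares the effect of CUMS with and without krill oil. Of all tested genes 7.23% had such a p, and 0% passed an adjusted p of 0.05. For Dcx the difference was 1.85 on the log2 scale (adjusted p = 0.665), from a log2FC of -0.26 without and 1.58 with krill oil. In the 10 libraries without C_O72 and MS_W95 these were 0.30 and 1.25, both positive. For Nes it was -0.52 (adjusted p = 0.665), from 0.27 without and -0.25 with krill oil, and in the 10 libraries from 0.27 and -0.11. Neither passed the adjusted threshold, and neither passed an unadjusted p of 0.05 in the 10 libraries (0.96 for Dcx and -0.38 for Nes).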

How the results depend on the processing

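The number of genes with an unadjusted p under 0.05 moved with the processing, while the number of gene and comparison pairs past an adjusted p of 0.05 was 0 in all 27 alternatives. Percentages in brackets are the shares of all tested genes with an unadjusted p under 0.05 in the same alternative. For MS_W against C_W the count was 2 in the 10 libraries (15.4%), with the cerebellum score (11.3%) and in edgeR (9.36%). It was 0 in an ordinary linear model with Ballgown's library size term (9.19%). Leaving out 1 library gave 0 to 2, with 0 without C_W64 (6.83%) or MS_W31 (10.4%) and 2 without C_O72 (15.8%). For MS_O against C_O it was 5 in DESeq2 (10.6%), edgeR (8.12%) and with the cerebellum score (11.8%). It was 0 with the olfactory bulb score (2.46%) and in the ordinary linear model (5.24%). Leaving out 1 library gave 2 to 6, with 6 without MS_W95 (10.6%). For C_O against C_W it was 1 in the ordinary linear model (10.5%). Leaving out 1 library gave 0 to 1, with 1 without C_W70 (2.51%) or C_O15 (8.26%). For MS_O against MS_W it was 2 in DESeq2 (7.53%), edgeR (5.54%) and the ordinary linear model (6.71%), and 1 with the hindbrain score (8.25%). Leaving out 1 library gave 0 to 2, with 2 without MS_O13 (9.1%). It was 1 without C_O72 (9.12%), MS_W31 (6.94%) or MS_W75 (6.75%). The interaction gave 4 in edgeR (7.87%) and 0 in the 10 libraries (7.51%). It also gave 0 with the olfactory bulb (4.51%), cerebellum (6.09%) and hindbrain (5.89%) scores. Leaving out 1 library gave 0 to 3, with 0 without C_O72 (5.61%) or C_W64 (4.64%). It was 1 without C_W1 (5.51%), MS_O46 (5.48%), MS_O78 (5.39%), MS_W31 (8.13%) or MS_W95 (5.76%). The causes of these moves were not tested.

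The 6 calls kept their direction in every alternative. For MS_W against C_W and MS_O against C_O, however, several alternatives could not change the log2FC. These left out a mouse of another group, or changed only the filter, the variance estimate or the groups fitted. The counts that follow include them. Sox2 kept p under 0.05 in 24 of 27 alternatives in MS_W against C_W and in 18 of 27 in MS_O against C_O, Dcx and Eomes in 25 of 27 in MS_O against C_O, and the interaction in 15 of 25 for Dcx and 17 of 25 for Nes. When leaving out 1 library, the log2FC of MS_O against C_O was 2.18 to 3.35 for Eomes and 1.25 to 1.98 for Dcx. Of the 34 other pairs of gene and comparison, 23 changed sign in some alternative, and 18 had an unadjusted p under 0.05 in some alternative. The counts of list genes in the 10 libraries and with the olfactory bulb score were added after seeing the data. No paired analysis was possible because the groups share no mouse numbers. With 3 mice a group, and 4 to 15 estimated counts at the low end for Nr2e1, Eomes and Mki67, small differences were beyond the reach of these data.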
